A study of Vulpes vulpes with 48 samples.

Results

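The basal forebrain and the prefrontal cortex of tame silver foxes were compared by RNA-seq, over the genes that have counts in both regions. The rule for this comparison took 10 tame basal forebrain libraries and 12 tame prefrontal cortex libraries, 22 of the 46 libraries with counts in the series, and no library of the aggressive line. All 22 come from the right side of the brain of male foxes aged 1.5 years of the tame line, so line, sex, side and age are shared by both groups and region is what differs. The silver fox is a colour form of the red fox (Vulpes vulpes), and the tame line was bred for a friendly response to people. The same rule asked for the comparison to be repeated without cortex libraries ID182, ID186, ID187, ID190 and ID191, which leaves 7 cortex libraries and 17 in all. Those 5 libraries were named because an earlier analysis of these counts found them apart from the other cortex libraries, so a narrower cortex group without them follows from the choice. Of 13202 genes in either table, 12695 were in both; 394 were listed for the forebrain only and 113 for the cortex only, and these lie outside the comparison.

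The prefrontal cortex is a layered sheet in which most neurons are excitatory and release glutamate, and it is known for its part in planning and in the control of social and emotional responses. The basal forebrain is a group of deep nuclei that holds the cholinergic neurons projecting to the cortex, together with many inhibitory neurons that release GABA, and it is known for its part in arousal, attention and reward. Regions of this kind are usually told apart by marker genes of these neuron types. The deposited tables name genes by dog identifiers alone and the fox RefSeq table at hand held 0 of them, so the region labels were not checked against markers and genes are given by identifier, without symbol, function or position.

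Over the shared genes, cortex libraries held from 7.09 to 17.2 M (mega) counts, with a mean of 11.8 ± 3.24 M (SD, n = 12). Forebrain libraries held 7.25 to 12.6 M, with a mean of 10.3 ± 1.85 M (SD, n = 10). The difference was within the spread between libraries (two-sided permutation test, p = 0.201). Each region has its own deposited table, so region and table cannot be told apart. The labels name no batch, and they do not say whether libraries of the 2 regions came from the same foxes; p-values here measure the spread between these libraries.

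On the first principal component of log2 CPM (CPM is a gene's count scaled to the library total), which held 60.8% of the variance, the 5 cortex libraries scored 57.0 to 156 and the other 17 libraries -45.5 to -14.7. The regions parted on the second component, which held 20.1%. Forebrain libraries scored 8.63 to 54.5 there and the 7 other cortex libraries -50.6 to -24.6, while the 5 ran from -22.1 to 25.3 and overlapped the forebrain. Region held 32.4% of the variance of all genes over the 22 libraries and 52.9% over the 17.

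Each library was then placed on a line through the mean of the 7 cortex libraries (position 0) and the mean of the 10 forebrain libraries (position 1), leaving each of these 17 out of its own axis. Of the 7 cortex libraries, 6 lay between -0.0444 and 0.00465 and ID185 lay at 0.290. Forebrain libraries ran from 0.706 to 1.15, with ID541 at 0.706 and ID486 at 0.720 the nearest to cortex and the next at 0.935. The 5 cortex libraries, which had no part in the axis, lay at 0.0861 (ID190), 0.0943 (ID186), 0.285 (ID191), 0.342 (ID182) and 0.349 (ID187). No cortex library reached the forebrain range.

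**Figure D1:**
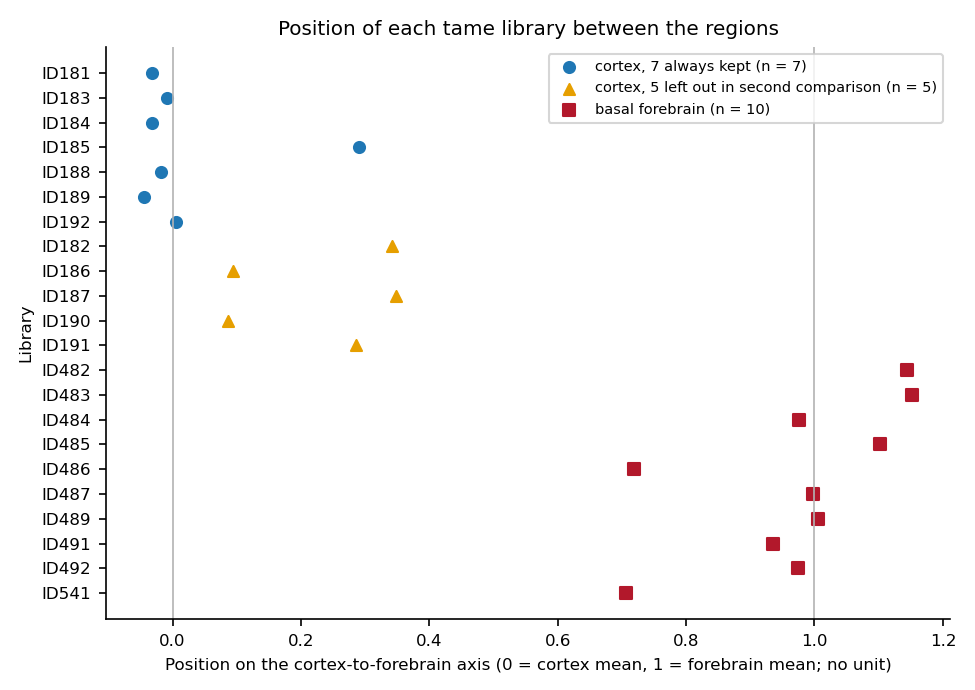
Position of each tame library (rows) on the axis from the mean of 7 cortex libraries (0) to the mean of 10 forebrain libraries (1), from log2 CPM over 12658 genes; the axis has no unit. Cortex library ID185 (0.290) and forebrain libraries ID541 (0.706) and ID486 (0.720) stand toward the other region, and the 5 cortex libraries left out of the second comparison lie between 0.0861 and 0.349.

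For 4 genes the levels were then read library by library. They are the 2 in each direction with the smallest p-values among genes with whole counts, no copy of the same values and, in both regions, an average of 10 counts or more; they ranked 1, 2, 5 and 6 by p among all genes tested. In brain tissue measured in bulk, a lower level can mean fewer cells of a type or less RNA per cell, which cannot be told apart here. Levels are CPM after TMM scaling, a method that sets the typical gene equal across libraries. They are not per length, so levels are not compared between genes.

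ENSCAFG00000018799 had the smallest p-value of all genes tested. Its level was 35.7, 86.4 and 105 CPM in the lowest, median and highest forebrain library. In the cortex the lowest, median and highest were 3.34, 4.30 and 10.4 CPM. The regions did not overlap: the lowest forebrain library was ID541 and the highest cortex library was ID185, the same libraries that stood toward the other region on the axis. The mean was 81.6 ± 21.7 CPM in the forebrain (SD, n = 10) and 4.80 ± 1.88 CPM in the cortex (SD, n = 12). Forebrain over cortex, this is a log2 fold change of 4.08 (SE 0.21), or 16.9-fold, with an edgeR adjusted p of 8.87e-12.

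ENSCAFG00000008664 was also higher in the forebrain, with less spread inside the cortex. The forebrain libraries had 39.9, 60.8 and 79.1 CPM (lowest, median, highest). The 12 cortex libraries had 15.8, 16.9 and 20.9 CPM. The cortex libraries lay close together, and ID541 was again the lowest forebrain library. The difference was 3.62-fold, a log2 fold change of 1.85 (SE 0.097) with an edgeR adjusted p of 8.96e-12.

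ENSCAFG00000019134 was lower in the forebrain. It stood at 28.6, 35.0 and 77.7 CPM in the lowest, median and highest forebrain library. In the cortex it stood at 252, 338 and 374 CPM. The groups were far apart, and the exceptions were the libraries seen before: ID486 (77.7 CPM) and then ID541 were the highest of the forebrain, and ID185 (252 CPM) was the lowest of the cortex. On the log2 scale the difference was -2.97 (SE 0.17), with an edgeR adjusted p of 3.08e-11.

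ENSCAFG00000029799 showed the same arrangement at a lower level. Forebrain libraries had 9.04, 10.9 and 15.2 CPM (lowest, median, highest), with ID486 and ID541 highest. Cortex libraries had 35.1, 48.2 and 66.6 CPM, with ID185 lowest and ID187 highest. The regions did not overlap, at a log2 fold change of -2.12 (SE 0.12) and an edgeR adjusted p of 3.08e-11.

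Without the 5 cortex libraries these 4 log2 fold changes were 4.02, 1.87, -2.92 and -1.97, in the order given, and the largest of the 4 edgeR adjusted p-values was 1.68e-09. All 4 also passed a test against a difference of 2-fold in both comparisons (edgeR TREAT; the largest adjusted p over the 4 was 2.22e-07 with 22 libraries and 6.22e-06 with 17). The rank by p used all 22 libraries, so these genes were chosen in part for a narrow range within the 12 cortex libraries.

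**Figure D2:**
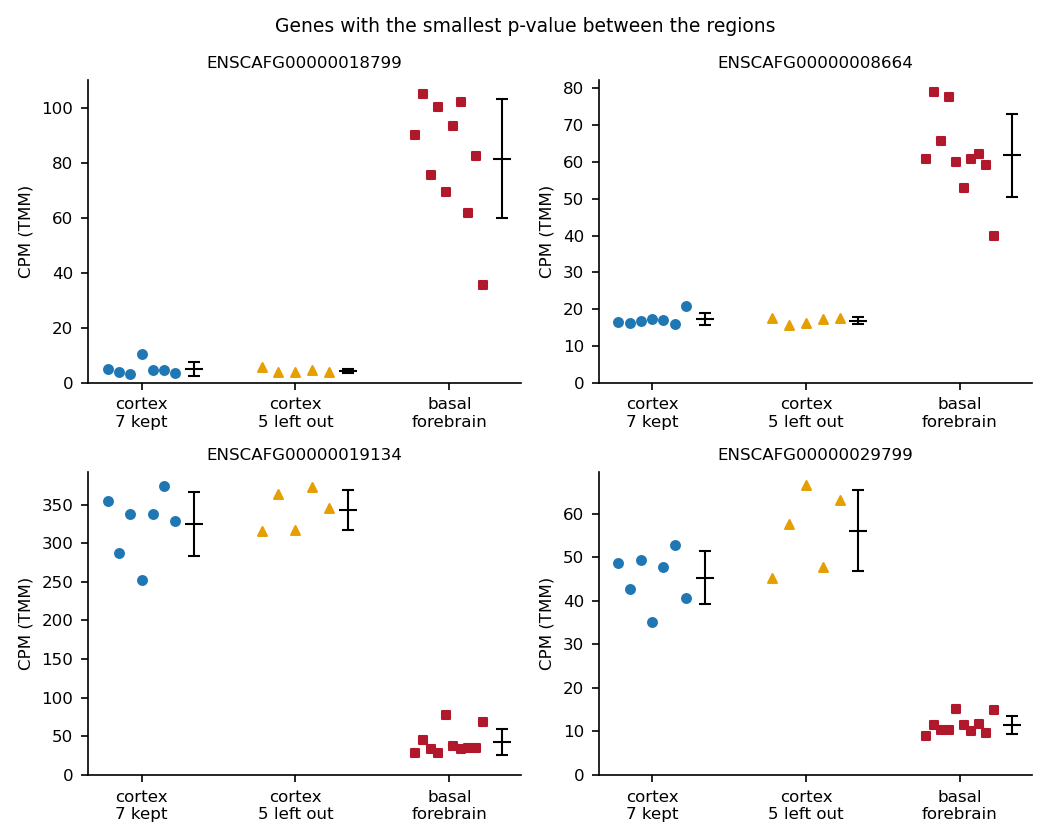
Level (CPM after TMM scaling, linear axes from 0) in every tame library of 4 genes, the 2 in each direction with the smallest p-values among genes with whole counts, no copy and enough counts, by group: 7 cortex libraries, 5 cortex libraries left out of the second comparison, and 10 basal forebrain libraries. Points are libraries and black bars the mean ± SD; for ENSCAFG00000018799 the forebrain runs from 35.7 to 105 CPM and the cortex from 3.34 to 10.4 CPM.

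Across all genes, 5512 of 12658 differed between the regions at an edgeR quasi-likelihood adjusted p under 0.05, 43.5% of those tested. Of these, 2720 (21.5%) were higher and 2792 (22.1%) lower in the forebrain. This near-even split depended on the scaling and the tool: 3176 were higher and 2395 lower with upper-quartile scaling, and 3512 and 2630 with limma-voom, but 2379 and 3105 with RLE size factors and 2609 and 3304 with DESeq2. Without the 5 cortex libraries 7318 of 12677 genes differed (57.7%), 3856 higher (30.4%) and 3462 lower (27.3%), and upper-quartile scaling gave 4672 higher and 2924 lower. Most differences were small: the median absolute log2 fold change was 0.40 over all genes and 0.72 over called genes with 22 libraries, and 0.31 and 0.54 with 17. The median SE fell from 0.18 to 0.10 when the 5 were left out, although fewer libraries entered. Those 5 were named for lying apart, so a smaller SE and more calls follow in part from that choice.

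Larger differences were fewer, and more of them were lower than higher in the forebrain. By TREAT, the edgeR test that a gene differs by more than 2-fold, 497 genes passed with 22 libraries (3.93%), 309 of them lower (2.44%) and the rest higher (1.49%) in the forebrain. With 17 libraries 592 passed (4.67%), 245 higher (1.93%) and 347 lower (2.74%); with upper-quartile scaling these 17 libraries gave a nearly even 282 and 292. In estimated size, 99 genes were at least 4-fold higher and 132 at least 4-fold lower with 22 libraries, against 101 and 115 with 17. At 8-fold or more the directions were close to even, with 22 higher and 24 lower, and 26 and 24 with 17 libraries. Fitted log2 fold changes reached 5.80 in one direction and -5.26 in the other, and 5.26 and -5.22 with 17 libraries.

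**Figure D3:**
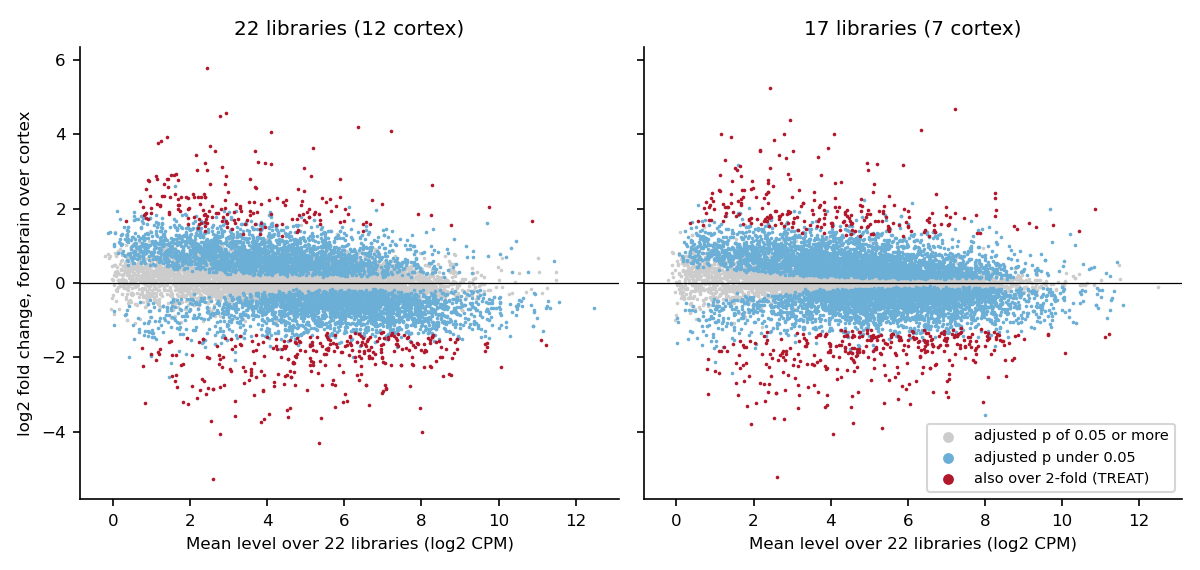
Log2 fold change of every gene (forebrain over cortex, vertical) against its mean level over the 22 libraries (log2 CPM, horizontal), with 22 libraries on the left and 17 on the right. Blue points passed an adjusted p of 0.05 and red points also passed the test for more than 2-fold (497 genes on the left and 592 on the right); the band of grey points around 0 is narrower on the right.

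For 1305 genes (10.3%) every forebrain library lay on one side of every cortex library, 817 with the forebrain lower (6.45%) and the rest with it higher (3.86%). With 17 libraries the regions were apart in 2540 genes (20.0%), 1067 higher (8.42%) and 1473 lower (11.6%); fewer libraries make this easier to reach. The genes past the 2-fold test were mostly of this kind: 142 of those higher and 271 of the 309 lower with 22 libraries, and 209 of 245 and 333 of 347 with 17. Both measures use the same values, so this overlap follows in part from how the genes were chosen.

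The genes over 2-fold lower in the forebrain made up 6.51 ± 0.949% of the counts of a cortex library (SD, n = 12) and 2.07 ± 0.416% of those of a forebrain library (SD, n = 10). The genes over 2-fold higher took 1.87 ± 0.302% of forebrain counts (SD, n = 10) and 0.393 ± 0.0672% of cortex counts (SD, n = 12). In the 17-library comparison its own genes over 2-fold lower took 6.03 ± 0.409% of cortex (SD, n = 7) and 2.03 ± 0.413% of forebrain counts (SD, n = 10). Those higher took 3.04 ± 0.430% of forebrain (SD, n = 10) and 0.788 ± 0.0524% of cortex counts (SD, n = 7). The direction of each share was fixed by how its genes were chosen. What the shares show is the weight of each set, with the cortex-high genes taking more of the counts in their own region than the forebrain-high genes did in theirs.

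The direction of the difference varied with the level of the gene. Genes were put into 5 equal parts by their mean log2 CPM over the libraries compared. In the lowest part, 887 of the 1120 genes called were higher in the forebrain, or 79.2%. In the highest part 250 were called higher and 1100 lower, and 18.5% of the calls were higher. The 3 parts between stood at 68.6%, 49.8% and 37.9%, in order of rising level.

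The order was the same without the 5 cortex libraries but the range was narrower, from 71.7% in the lowest part (905 higher and 358 lower) to 34.2% in the highest (567 higher and 1090 lower). The 2-fold test gave 97 higher and 48 lower in the lowest part and 11 and 107 in the highest with 22 libraries. With 17 libraries it gave 89 and 73, and 36 and 92. Scaling moved these shares without turning the order of the lowest and highest parts: in the 22 libraries they were 75.2% and 14.3% with RLE size factors and 82.7% and 23.2% with upper-quartile scaling, and in the 17 libraries 71.2% and 32.7%, and 75.5% and 43.8%. TMM factors did not overlap between the regions, from 1.06 to 1.12 in the forebrain and from 0.734 to 1.01 in the cortex, and the part of library composition in this trend was not tested. Counted over the tame and aggressive libraries together, every gene of either table reached 1 CPM in at least 6 libraries of its region. Genes that reached it in fewer are missing from the lowest part, while genes near 0 in the tame libraries alone need not be.

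**Figure D4:**
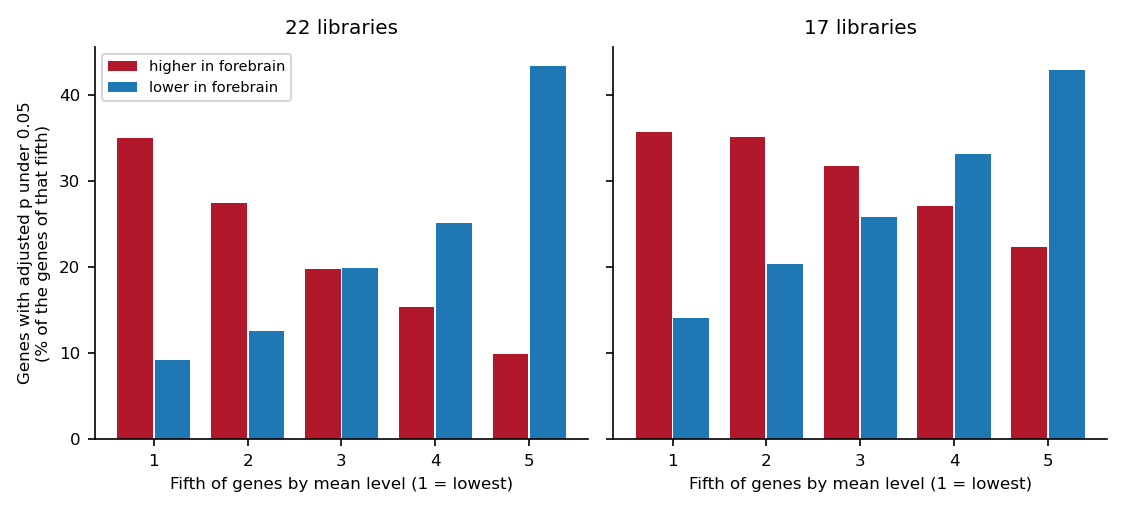
Share of genes (percent of each part, vertical, from 0) called higher (red) or lower (blue) in the forebrain at an edgeR adjusted p under 0.05, in 5 equal parts of the genes by mean level from lowest (1) to highest (5), with 22 libraries on the left and 17 on the right. Calls in the lowest part were mostly higher (887 of 1120 with 22 libraries) and calls in the highest part mostly lower (1100 of 1350).

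The calls of the 2 comparisons were then matched gene by gene. Of 12656 genes tested in both comparisons, 4552 were called in both, 82.6% of the calls with 22 libraries and 62.2% of those with 17, and 0 of them in opposite directions. Both fits share 17 libraries, so the same direction among genes called in both was likely in advance. Over all genes tested in both, called or not, the sign of the log2 fold change differed between the fits in 3059. A further 959 were called with 22 libraries only, 240 higher and 719 lower in the forebrain. Another 2762 were called with 17 only, 1375 higher and 1387 lower. The log2 fold change moved by more than 0.5 in 2000 genes, upward in 653 and downward in 1347. Of the genes past the 2-fold test, 392 were in both lists, 78.9% of the 22-library list and 66.2% of the 17-library list.

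On the genes over 2-fold in the 17-library comparison, which the 5 libraries did not enter, their deviation from the mean of the 7 other cortex libraries was below that of every forebrain library in size. These genes were chosen for a distance between the same forebrain libraries and the same 7, so the forebrain values are large by that choice. It also favours genes in which the 7 lay far from the forebrain. Any other cortex library can therefore lie nearer the forebrain by the choice alone, and the values of the 5 are not free of it. Over the 245 genes higher in the forebrain, the median deviation was 0.03 (ID186), 0.09 (ID190), 0.44 (ID191), 0.49 (ID182) and 0.61 (ID187) log2 units, where forebrain libraries had 1.50 to 2.05. Over the 347 genes lower in the forebrain it was -0.26 in ID182, -0.11 in ID187, -0.09 in ID191, 0.06 in ID186 and 0.08 in ID190, where forebrain libraries had -2.17 to -1.27. Over all genes the 5 had medians of -0.07 to 0.01. Among the 7, each set against the mean of the rest, the median ran from -0.08 to 0.12 on the forebrain-high genes. ID182, ID187 and ID191 lay above that range, and ID186 and ID190 lay within it. On the cortex-high genes the 7 ran from -0.31 to 0.11, and all of the 5 lay within that range. Cortex library ID185 had 0.12 on the forebrain-high genes and -0.31 on the cortex-high genes, with the larger size on the cortex-high genes. Its median over all genes was 0.006. The signs were those of ID182, ID187 and ID191, but the cortex-high values of ID187 and ID191 lay near their all-gene medians (-0.06 and -0.07). Of the cortex-high genes, 10.1% lay above the cortex mean in ID185, 39.2% in ID182 and 47.8% in both ID187 and ID191. Over all genes tested the share was 50.9% in ID185, 50.4% in ID182, 48.5% in ID187 and 48.6% in ID191. ID187 and ID191 thus stood near their all-gene share. In the rest of the 7, the share of cortex-high genes ran from 48.4% (ID183) to 76.4% (ID189). The 100 most abundant genes held 17.4% to 21.4% of counts in the 5 libraries, 15.0% to 15.4% in the other cortex libraries and 14.5% to 16.4% in the forebrain. The part of that share in the position of the 5 libraries was not tested.

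Among genes called without the 5 libraries, the 2 in each direction whose log2 fold change moved most are given, under the same conditions of whole counts, no copy and enough counts. ENSCAFG00000029929 had 3.38, 5.06 and 13.7 CPM in the lowest, median and highest forebrain library. The 7 cortex libraries had 0.706, 0.989 and 2.95 CPM. The 5 had 1.59 (ID186), 3.42 (ID182), 3.53 (ID191), 3.77 (ID190) and 8.16 CPM (ID187). The 7 lay below every forebrain library, while 4 of the 5 lay within the forebrain range. Its difference on the log2 scale was 1.22 with 22 libraries (SE 0.37, edgeR adjusted p = 0.0111) and 2.14 with 17 (SE 0.33, edgeR adjusted p = 2.64e-05). Its counts were low, down to 6 in a library.

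ENSCAFG00000031225 had 27.9, 79.5 and 132 CPM in the lowest, median and highest forebrain library, against 12.1, 17.6 and 32.9 CPM in the 7 cortex libraries. Here ID182 stood alone among the 5, at 169 CPM, above every forebrain library; ID187 had 44.8, ID191 28.9, ID186 20.8 and ID190 19.4 CPM. The lowest forebrain library was ID483, which overlapped the cortex. With 22 libraries it differed by 1.22 on the log2 scale (SE 0.40, edgeR adjusted p = 0.0175), and with 17 by 2.08 (SE 0.27, edgeR adjusted p = 4.20e-06). Without ID182 alone it was 1.84.

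ENSCAFG00000010521 was lower in the forebrain, with 6.27, 10.5 and 16.1 CPM in the lowest, median and highest library. The 7 cortex libraries had 10.6, 13.1 and 35.7 CPM and overlapped the forebrain. The 5 all lay above the forebrain range, at 20.5 (ID182), 26.7 (ID186), 28.7 (ID190), 48.9 (ID191) and 113 CPM (ID187). Its difference on the log2 scale was -1.48 (SE 0.36, edgeR adjusted p = 0.00207) with 22 libraries and -0.74 (SE 0.25, edgeR adjusted p = 0.0184) with 17. Without ID187 alone it was -1.08, and without ID182, ID186, ID190 or ID191 alone it ran from -1.52 to -1.40. The 5 libraries carried much of the first value, ID187 the most among them, and the gene was chosen for that move.

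ENSCAFG00000024014 separated the 5 libraries from all others. It had 2.36, 3.95 and 5.39 CPM in the lowest, median and highest forebrain library. The 7 cortex libraries had 5.16, 5.63 and 10.2 CPM. The 5 had 0 counts (ID191), 2 (ID186), 3 (ID187), 3 (ID190) and 4 (ID182), where the other 17 libraries had 22 to 103 counts. A count of 0 in ID191 allows up to 0.442 CPM at a limit of 3 counts, for counting error only. With the 5 included, the 2 regions did not differ by the test (log2 fold change 0.08, SE 0.55, edgeR adjusted p = 0.914); the 5 lay below the forebrain range, and 3 of the other cortex libraries lay within it. Without them the forebrain was lower (log2 fold change -0.63, SE 0.18, edgeR adjusted p = 0.00580).

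This gene was not alone in that arrangement. In 120 of the 12658 genes every one of the 5 libraries lay at least 4-fold below every one of the 17 others, of both regions; 0 genes showed the same gap upward. With no gap required, 2695 genes were lower and 1604 higher in all 5 than in all 17. The 5 libraries were chosen from these values, so these counts describe them and test nothing.

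**Figure D5:**
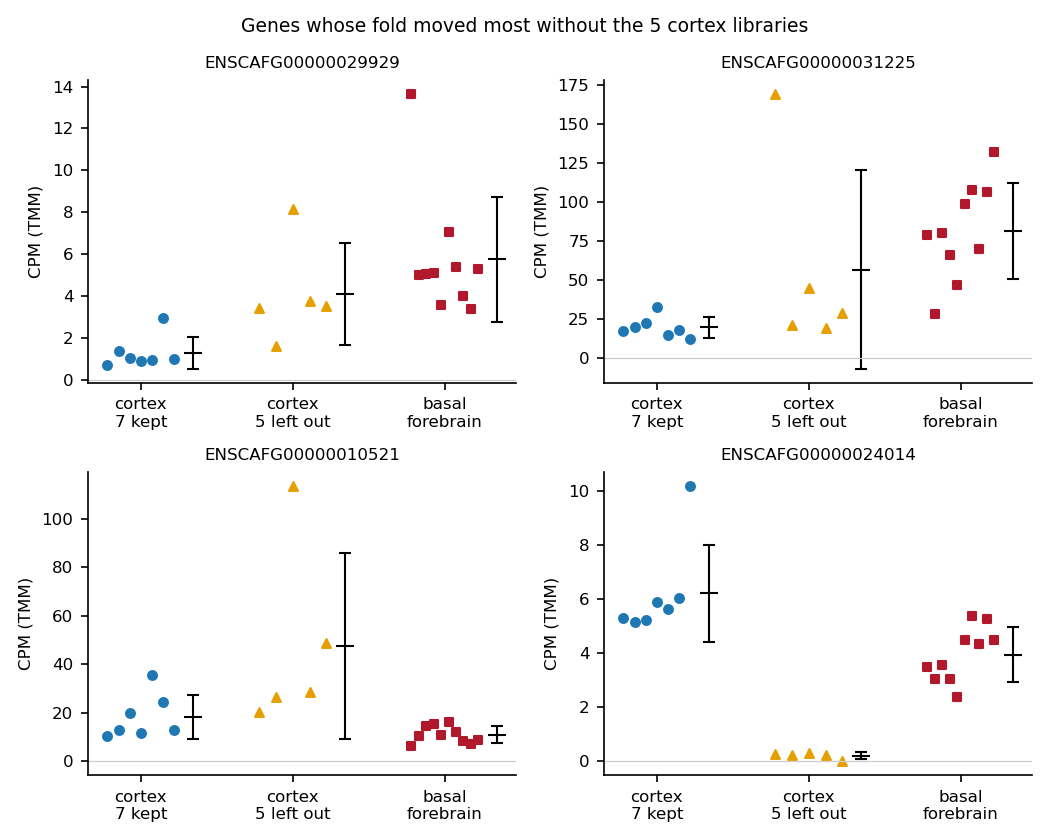
Level (CPM after TMM scaling, linear axes) in every tame library of 4 genes called with 17 libraries, the 2 in each direction whose log2 fold change moved most between the comparisons among genes with whole counts, no copy and enough counts, by group: 7 cortex libraries, 5 cortex libraries left out, 10 basal forebrain libraries. Points are libraries and black bars the mean ± SD (a bar may pass below 0 where 1 library is far above the rest, such as ID182 at 169 CPM for ENSCAFG00000031225); for ENSCAFG00000024014 the 5 lie from 0 to 0.306 CPM.

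How far libraries spread within a region was measured as each library's RMS deviation in log2 CPM, over all genes, from its region's average. With 22 libraries it was 0.337 ± 0.106 log2 units in the forebrain (SD, n = 10) and 0.643 ± 0.262 in the cortex (SD, n = 12; two-sided permutation test, p = 0.00111; adjusted p = 0.00222 over the 2 library measures tested, total and distance). Without the 5 libraries it turned round, to 0.338 ± 0.106 in the forebrain (SD, n = 10) and 0.239 ± 0.0692 in the cortex (SD, n = 7), a difference that did not pass (two-sided exact permutation test, p = 0.0570; adjusted p = 0.114). Gene by gene, the median SD over libraries was 0.23 log2 units in the forebrain, 0.49 in the 12 cortex libraries and 0.16 in the 7. The SD was larger in cortex than in forebrain for 82.4% of genes with 12 cortex libraries and for 27.2% with 7. The 5 were named from these counts for lying apart, so a narrower cortex without them, by distance and gene by gene, follows from that choice. The test without them does not allow for the choice, and the test with all 22 was run with the 5 already known to lie apart. The mean of the 12 cortex libraries falls between the 5 and the 7. The 7 stood 0.503 to 0.615 from it, farther than ID190 (0.381) and ID186 (0.431) of the 5. The distance in the 12 thus holds the split within the cortex as well as the scatter of single libraries.

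The libraries that lay between the regions also bear on the size of the differences. With ID185, ID486 and ID541 left out in addition to the 5, which was tried after the data were seen, 14 libraries remained. The number of genes called was 7610, with 3807 higher and 3803 lower, and 790 passed the 2-fold test, 318 higher and 472 lower. The log2 fold changes of the 4 genes first described became 4.39 for ENSCAFG00000018799, 1.90 for ENSCAFG00000008664, -3.29 for ENSCAFG00000019134 and -2.17 for ENSCAFG00000029799. Larger differences follow in part from leaving out libraries because they lie near the other region.

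Some genes may share reads with another gene. Of the genes compared, 646 had a fractional count, and of the 642 of these that were tested 295 were called with 22 libraries (46.0%, against 43.5% of all genes tested). In addition, 505 genes had the same rounded counts as another gene in all 22 libraries, and 212 of them are among the 5512 calls.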

How the data were processed

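The authors deposited 1 table of estimated counts per dog gene identifier for each region; the submitters' processing notes name CASAVA 1.8.2, FastQC, Trimmomatic, BWA, bedtools, edgeR and the build canFam3, with no roles given. Per the labels' protocols, libraries were made from total RNA with TruSeq kits (poly(A) RNA) and sequenced on a HiSeq2000. Of the tame forebrain samples, ID488 and ID490 were not used here.

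Counts of genes in both tables were rounded to whole numbers and filtered with filterByExpr (minimum count 10). edgeR 4.0.16 (R 4.3.3) was used with TMM scaling, region as the only term, robust quasi-likelihood F-tests and TREAT against 2-fold, with Benjamini-Hochberg adjustment over all genes tested and a threshold of 0.05. The SE of a log2 fold change is its size divided by the square root of F. Log2 CPM used a prior count of 2. Library measures were compared by two-sided permutation tests (100000 resamples, or exact with 7 libraries). Named genes had at least 10 counts on average in each region, whole counts and no copy: the 2 in each direction with the smallest p, and the 2 called without the 5 libraries that moved most. Alternatives covered scaling, filters, DESeq2 1.42.0, limma 3.58.1, the Wilcoxon test, a replicate block and single libraries. Gene lists of symbols could not be used. The members, lists and tests were chosen with earlier results of these data known.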

Additional observations from a re-analysis of the deposited data

Results flagged for a closer look

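In 48 sets of library values, each with 5 to 10 libraries, 10 had a library whose gap to its nearest neighbour was large for the range of the set; chance gives about 1 in 20, or 2.4, and the sets are not independent. Forebrain library ID483 lay farthest from its region's mean, at 0.605 log2 units, with the next at 0.427. Cortex library ID185 stood apart from the 6 other cortex libraries of the 17-library comparison in its second component score (-24.6, next -45.3), its position between the regions (0.290, next 0.00465) and its level of ENSCAFG00000018799 (10.4 CPM, next 5.18). Cortex library ID192 was apart for ENSCAFG00000008664 (20.9 CPM, next 17.3) and ENSCAFG00000024014 (10.2 CPM, next 6.04), and ID189 for ENSCAFG00000029929 (2.95 CPM, next 1.36). In the forebrain, ID482 was apart for ENSCAFG00000029929 (13.7 CPM, next 7.05). Among the 5 cortex libraries left out, ID182 was apart for ENSCAFG00000031225 (169 CPM, next 44.8) and ID191 for ENSCAFG00000024014 (0 CPM, next 0.226), where all 5 are at or near the limit of counting.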

How the results depend on the processing

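The count of 5512 genes moved by less than 1.5 times under every alternative tried: 5484 with RLE size factors, 5571 with upper-quartile scaling, 5511 with no filter, 4895 at a mean CPM of at least 5, 5913 with DESeq2, 6142 with limma-voom, 8162 with sample quality weights, 5950 with the Wilcoxon test, 5557 with robust=FALSE and 5223 over genes with whole counts. Leaving out 1 library gave 5073 to 5723 genes, and 448 to 540 past the 2-fold test; inside the 17-library comparison, where leaving out single libraries was added after the data were seen, it gave 6894 to 7543 and 502 to 658. The distance between library and region mean, forebrain minus cortex, turned from -0.306 to 0.0986 without the 5 cortex libraries, and was -0.665 over the 500 most variable genes. A narrower cortex without those 5 libraries follows from how they were chosen. The 500 genes were picked by variance over the same 22 libraries, so a larger size there follows in part from that choice. The log2 fold change of ENSCAFG00000024014, not called with 22 libraries, was -0.63 without the 5 and ran from -0.039 to 0.33 when 1 library was left out, below 0 without any of the 5; it was 1.26 with limma-voom (adjusted p = 0.126) and 0.80 with the edgeR replicate block (adjusted p = 0.399). That of ENSCAFG00000031225 was 0.88 (edgeR adjusted p = 0.119) in the 18 libraries that have a partner, and 1.30 (adjusted p = 0.0250) in the same libraries with the replicate block.

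Libraries of the 2 regions can be matched by the last 2 digits of their identifiers in 9 pairs. Their deviations from the region means correlated from -0.267 to 0.325, over 0.1 in 4 of 9 pairs, and 3 of 9 forebrain libraries correlated best with their own number. The cortex mean used here includes the 5 libraries that lie apart, so these values cannot decide whether the numbers pair the libraries. The labels give no pairing, and the main fits took the libraries as unpaired. With this replicate block edgeR called 4115 genes, against 4855 in the same 18 libraries without it; limma-voom called 6042 with it and 6142 without. Depth sets the limit for low genes such as ENSCAFG00000029929, with 6 counts in 1 library.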
